A study of Mus musculus with 36 samples.

Results

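CD8 intraepithelial lymphocytes (IELs) of the mouse small intestine were compared between animals with the long noncoding RNA lnc13 (wild type, WT) and animals without it (knockout, KO), in cells that the labels call unstimulated. The comparison rests on 6 of the 36 samples of the series: 3 WT and 3 KO libraries, which the titles call biological replicates. They were chosen by title, and no measured value was used to choose them. Both groups are described only by genotype, tissue and cell type. Age, strain, the construction of the knockout allele, the way CD8 cells were isolated, and whether a replicate was 1 mouse or a pool are not given in the sources used here. RNA was poly(A) selected, and CD8 libraries were made with a kit for single cells or low input. The same series holds 3 WT and 3 KO libraries of CD8 IELs cultured for 48 h in IL-15, whose values are set beside those of the unstimulated cells without a test between the 2 tables, because each table was normalised on its own.

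CD8 IELs are T cells that live between the epithelial cells of the gut. They carry the integrin CD103 (gene Itgae), store granzymes in granules, and respond to IL-15 and IL-18, cytokines that epithelial cells can supply. lnc13 is a noncoding RNA of the region around Il18rap, which encodes an accessory chain for the receptor of IL-18. In macrophages it is known to bind chromatin with the RNA-binding protein hnRNPD and the deacetylase HDAC1 and to hold down a set of inflammatory genes. The comparison asks whether the RNA of resting CD8 IELs differs when lnc13 is missing. No row of the table carries the name lnc13, so the genotypes could not be read from its own level.

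All values are read counts per Ensembl gene, scaled by the authors with 1 factor per library, and are called normalised counts here. The 6 libraries held 16428511 to 23762128 reads in genes, and 1 read was worth 0.781 to 1.33 normalised counts. Sums of normalised counts differed between libraries, from 15001831 in WT replicate 2 to 21870599 in KO replicate 3. Genes at 5 or more numbered 12956 to 16941 per library. Mitochondrially encoded genes took 2.6% to 5.12% of reads in WT and 2.8%, 2.81% and 7.75% in KO, the last in KO replicate 1. Replicate 1 of both genotypes lacked reads of Y-linked genes, with the RNA helicase gene Ddx3y at 0 in WT and 1.02 in KO, and replicates 2 and 3 of both genotypes held Ddx3y at 1301 to 3640. Xist, the RNA of the inactive X chromosome, was 267, 2.34 and 6.01 in WT and 54.9, 4.65 and 2.66 in KO, highest in the same 2 libraries and low there too. The libraries without Y-linked reads were 1 in each group.

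The cells matched their label. The CD8 alpha chain gene Cd8a was 23274, 20432 and 21356 in WT and 21487, 23504 and 25190 in KO. The beta chain gene Cd8b1 was 31936, 19676 and 21205 in WT and 28752, 24883 and 33312 in KO. Both chains were present at a like level in all 6 libraries, and the genotypes overlapped. Cd4, the coreceptor of helper T cells, was at most 5.33 in any library, and Foxp3, the factor of regulatory T cells, at most 6.09. The chemokine gene Ccl5 was 272945, 169135 and 204549 in WT and 211210, 259807 and 246626 in KO. The plot of T cell genes shows these levels beside genes that varied.

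**Figure D1:**
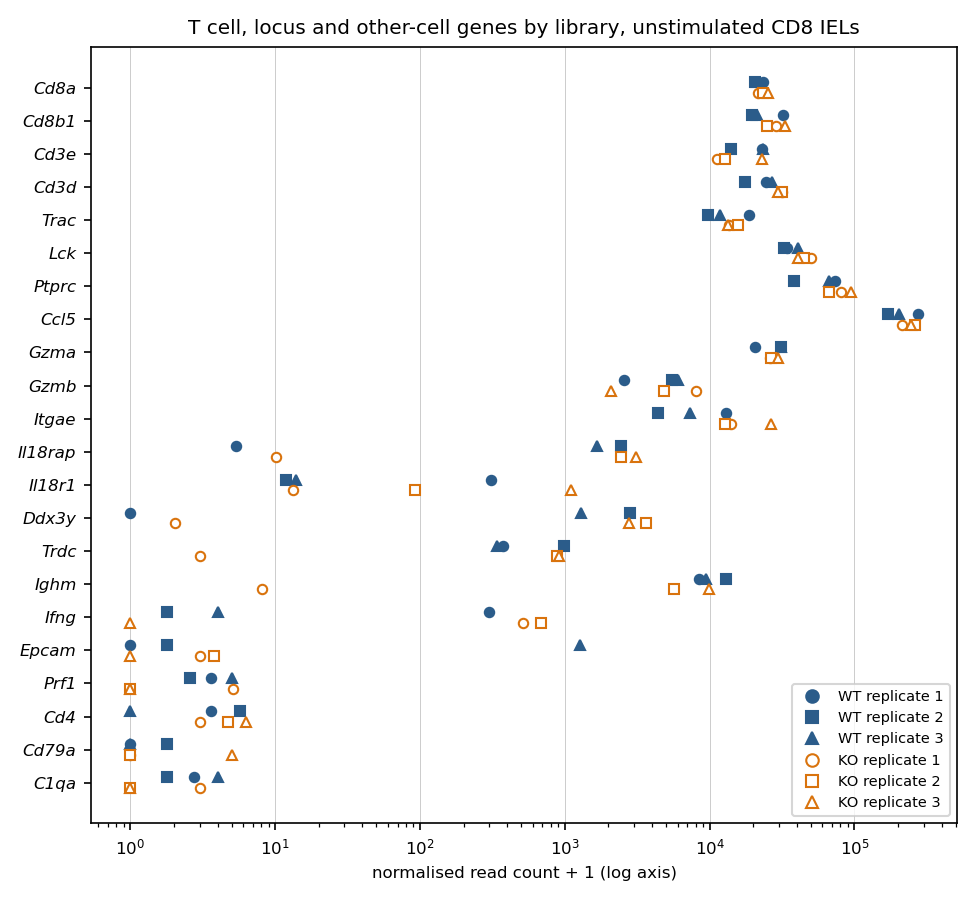
Normalised read count + 1 (log axis) of 22 genes in each of the 6 unstimulated libraries; filled symbols are WT, open symbols KO, and the shape gives the replicate number. Cd8a lies between 20432 and 25190 in all libraries, while Il18rap is below 10 in replicate 1 of both genotypes and 1679 to 3097 in the other 4.

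Expression outside such genes was patchy. Of 10510 genes with a mean of at least 50, 7571 (72%) had a highest library at least 100 times their lowest, and 2545 (24.2%) were at exactly 0 in at least 1 library. These 2545 are counted among the 7571, because a lowest value of 0 meets any ratio. In the IL-15 set 170 of 10569 genes (1.61%) met the ratio of 100, 162 of them lowest in WT replicate 3 of that set. The lowest library of a patchy gene was spread over all 6, from 1060 genes in KO replicate 3 to 1551 in KO replicate 1. Of the patchy genes, 2173 (28.7%) came within 10 times of their highest value in only 1 library, and 963 (12.7%) did so in 5. The pattern was most frequent at middle levels, at 86.7% of genes with a mean of 50 to 500 and 81.2% at 500 to 2000. The share was 39% at 2000 to 5000, 4.88% at 5000 to 20000 and 0 of 94 genes above that. At a mean of 5 to 50, 45.4% of genes met the same ratio. Of the 7571 patchy genes, 6162 (81.4%) had a mean of at least 50 in the IL-15 set too, and 6025 of those (97.8%) varied by less than 10 times there.

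**Figure D2:**
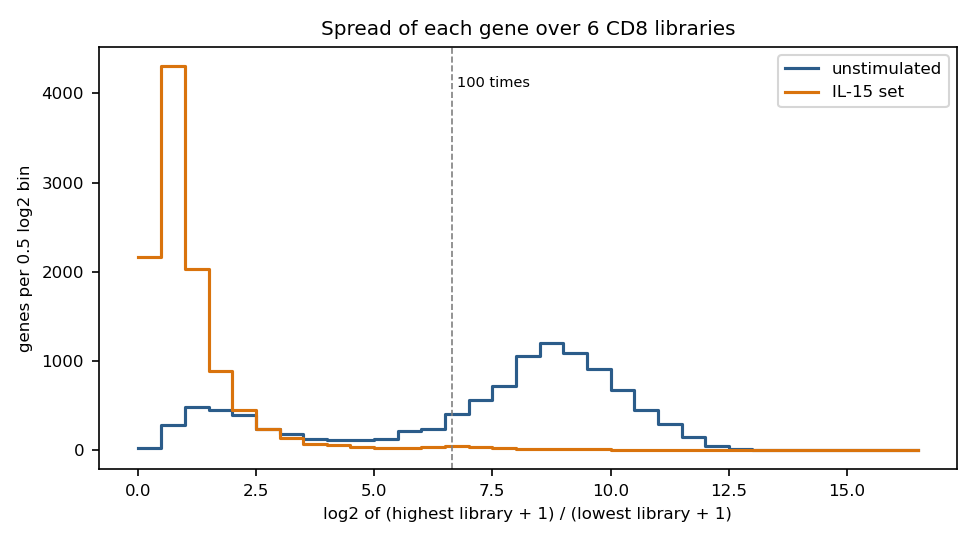
Number of genes (y axis, per bin of 0.5) by the log2 ratio of the highest to the lowest of 6 libraries, 1 added to both (x axis), among genes of mean at least 50 in the unstimulated table and in the IL-15 table. Most unstimulated genes lie to the right of the dashed line at 100 times and most IL-15 genes far to its left.

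Libraries of the same genotype were no more alike than libraries of different genotypes. Across genes with a mean of at least 5, log2 values of pairs of libraries correlated at 0.524 to 0.622, with a median of 0.562 within a genotype and 0.557 between genotypes. In the IL-15 set pairs ranged from 0.87 to 0.976. These correlations are across genes of the same libraries and describe them only.

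No gene passed the test for a difference between KO and WT. By limma on log2(value + 1), 0 of 17208 genes (0%) had an adjusted p under 0.05, with a smallest adjusted p of 0.417, and 575 (3.34%) had an unadjusted p under 0.05, 246 higher and 329 lower in KO. The split moved with the setting: it was 177 and 177 with a pseudocount of 10, 281 and 228 without KO replicate 1, 176 and 489 without WT replicate 2, and 202 and 415 with libraries scaled to equal totals. All 3 KO libraries lay above all 3 WT libraries for 656 genes (3.81%) and below them for 810 (4.71%). The tools differed. On reads recovered from the values, edgeR also called 0 genes, with 1380 at an unadjusted p under 0.05, whereas DESeq2 called 300 higher (1.74%) and 465 lower (2.7%), together 4.45% of the genes, and had 1724 at an unadjusted p under 0.05. Of the 765 DESeq2 calls, 744 were genes whose highest library was at least 100 times the lowest, and WT and KO overlapped in 421. With 3 against 3 libraries an exact permutation test of a single gene cannot go below 0.1. The genes named next are those with the smallest unadjusted p among genes whose genotypes did not overlap, so the lack of overlap is how they were chosen.

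Among the 12 genes lower in KO, 1 is an interferon-induced gene. Rtp4, which encodes a receptor transporter protein, was 950, 1221 and 890 in WT and 0, 0.929 and 0 in KO. The 3 KO libraries together held 1 read of it. Its unadjusted p was 9.74e-05 and its adjusted p 0.417 by limma, while DESeq2 gave an adjusted p of 7.16e-06.

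Others act in the nucleus. H1f0, the linker histone H1.0, was 4148, 1840 and 4580 in WT and 0, 4.65 and 0 in KO. Phf5a, a subunit of the SF3b splicing complex, was 799, 1038 and 1157 in WT and 1.02, 1.86 and 3.99 in KO. Nup43, a nuclear pore protein, was 594, 988 and 1335 in WT and 0, 7.44 and 0 in KO. All 3 genes were at 594 or more in every WT library and at 7.44 or less in every KO library.

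Genes of mitochondria and of membrane compartments followed the same shape. Apool, a protein of the mitochondrial cristae, was 456, 1727 and 804 in WT and 2.03, 2.79 and 0 in KO. Tamm41, an enzyme of cardiolipin synthesis, was 1194, 1421 and 1013 in WT and 2.03, 0 and 5.33 in KO. Atp6v0d2, a subunit of the proton pump of lysosomes and endosomes, was 1058, 1118 and 2773 in WT and 0, 0.929 and 0 in KO. KO libraries held 1 to 6 reads in all of each of these genes. Cyb561a3, a cytochrome b561 family protein, was 2720, 3969 and 2043 in WT and 1.02, 3.72 and 0 in KO. The tetraspanin gene Tspan31 was 905, 983 and 600 in WT and 0, 0 and 3.99 in KO. B9d2, a protein of the base of the cilium, varied most in WT, at 253, 1085 and 2068, and was 0, 0.929 and 0 in KO. For each of these the lowest WT library was far above the highest KO library.

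The other two of the 12 are a small GTPase and a phosphatase subunit. Arl4d, of the ARF family, was 223, 611 and 410 in WT and 2.03, 1.86 and 0 in KO. Ppp2r5d, a regulatory subunit of protein phosphatase 2A, was 3481, 2474 and 2014 in WT and 5.09, 0.929 and 3.99 in KO. Over the 12 genes, fitted log2 differences ran from -7.54 for Arl4d to -10.84 for H1f0, and adjusted p from 0.417 to 0.438. Such differences depend on the added 1 because the KO values are near 0.

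The 12 genes higher in KO held the only 3 that were abundant in both genotypes. Eef2, the elongation factor that moves the ribosome along the mRNA, was 17546, 13777 and 16906 in WT and 30635, 31835 and 28896 in KO. The log2 difference was 0.93 (SE 0.13), with an adjusted p of 0.417 by limma and 0.00238 by DESeq2. Eif4g2, a translation initiation factor, was 13622, 17854 and 17357 in WT and 25551, 28697 and 31259 in KO, a log2 difference of 0.81 (SE 0.15). Nipbl, which loads cohesin onto chromosomes, was 3333, 2725 and 5107 in WT and 13763, 14813 and 10349 in KO, a log2 difference of 1.84 (SE 0.36). In these 3 genes every KO library was above every WT library and no library was near 0. Their adjusted p by limma was 0.417, 0.469 and 0.591, so none passed, and DESeq2 gave 0.00238, 0.0401 and 0.000735.

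The other 9 were near 0 in WT. Klrb1f, a lectin-like receptor of the NK cell receptor family, was 4.35, 2.34 and 3 in WT and 1697, 1470 and 422 in KO. Chmp6, an ESCRT-III protein of membrane scission, was 0, 1.56 and 1 in WT and 3946, 1090 and 727 in KO. Zscan21, a zinc finger transcription factor, was 0.87, 3.13 and 5.01 in WT and 2779, 1995 and 1974 in KO. WT libraries held 3 to 11 reads in all of each of these 3 genes. Csnk1g3, a casein kinase, was 0.87, 5.47 and 2 in WT and 2072, 401 and 2256 in KO. Vamp5, a vesicle fusion protein, was 0.87, 0.781 and 0 in WT and 560, 27.9 and 327 in KO, so that its second KO library was far below the other two. Lcn4, a lipocalin, was 0, 3.13 and 0 in WT and 488, 355 and 137 in KO. The last 3 genes, Tmem91, Ccdc58 and Sergef, ranged from 0 to 5.47 in WT and from 647 to 2083 in KO. Adjusted p over the 9 genes ran from 0.417 to 0.591 by limma. DESeq2 called all 24 of the named genes, which were chosen by limma p on the same libraries, so these calls are not separate support.

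**Figure D3:**
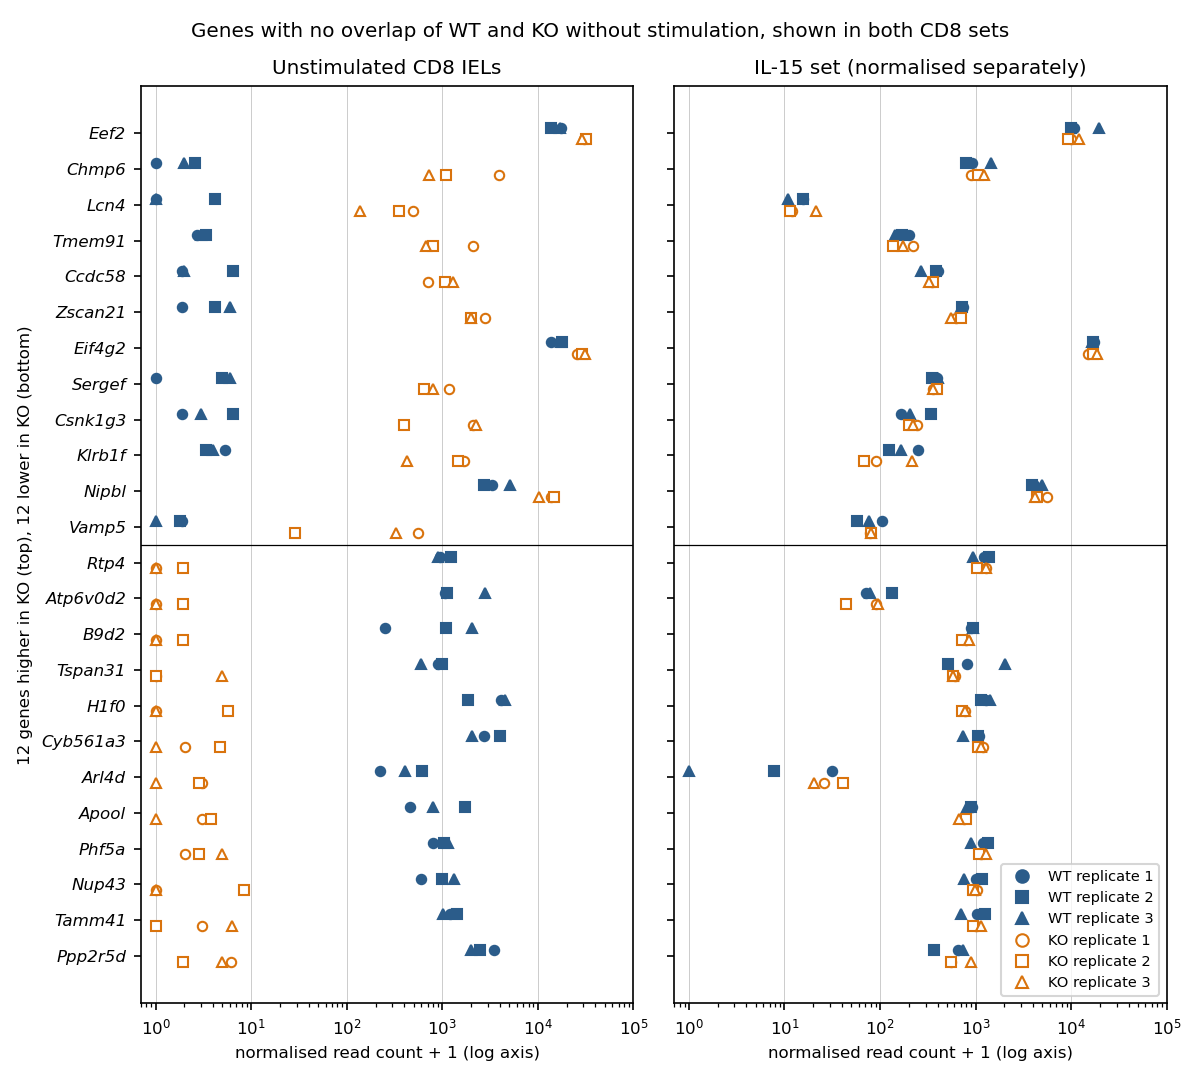
Normalised read count + 1 (log axis) of the 12 genes higher and the 12 lower in KO, by library, without stimulation (left) and in the IL-15 set (right); filled symbols are WT, open symbols KO. Of the 24 genes, 21 are at or below 20 in all 3 libraries of 1 genotype on the left, and 19 of those 21 are above 20 in every library on the right.

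In the IL-15 set these genes looked different. WT and KO overlapped for 21 of the 24. Rtp4 was 1220, 1370 and 950 in WT and 1281, 1031 and 1273 in KO there. Eef2 was 10842, 9919 and 19419 in WT and 10081, 9278 and 12044 in KO, a log2 difference of -0.30 (SE 0.25, adjusted p = 0.65 by limma). Zscan21 was 736, 713 and 704 in WT and 620, 706 and 553 in KO. Each of these 3 was present in all 6 IL-15 libraries at overlapping values. KO lay below WT for 3 genes, all of them from the 12 lower in KO, and above WT for none. Over all 16371 genes tested in that set, 0 (0%) passed adjusted p 0.05 by limma, 1841 had an unadjusted p under 0.05, and KO lay below WT for 9.16% and above for 11.1%. H1f0 was 1296, 1141 and 1402 in WT and 770, 724 and 775 in KO, with a log2 difference of -0.75 (SE 0.14, adjusted p = 0.349). B9d2 was 892, 944 and 943 against 799, 717 and 855, and Apool 909, 899 and 811 against 751, 793 and 677. Neither passed. Whether the KO difference itself differs between the 2 sets was not tested. The T cell genes Cd8b1 and Trdc stood at other levels in most IL-15 libraries. Cd8b1 was 6394, 1681 and 43429 in WT and 1694, 2741 and 2634 in KO there. Trdc, the constant region of the delta chain, was 39948, 43735 and 1897 in WT and 32260, 37999 and 26591 in KO. WT replicate 3 of that set stood apart in both genes. Whether the 2 sets hold the same mix of cells was not tested.

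The 2 receptor genes of the lnc13 region varied more between replicates than between genotypes. Il18rap was 4.35, 2454 and 1679 in WT and 9.16, 2431 and 3097 in KO, and its log2 difference was 0.60 (SE 3.34, adjusted p = 0.999 by limma). It was near 0 in replicate 1 of both genotypes, which are also the libraries without Y-linked reads, and the part of sex in this was not tested. Leaving out WT replicate 1 turned the difference to -2.26, KO replicate 2 to -0.66 and KO replicate 3 to -0.84. In the IL-15 set, Il18rap was 497, 311 and 1364 in WT and 499, 292 and 610 in KO. Il18r1, the ligand-binding chain of the receptor, was 310, 10.9 and 13 in WT and 12.2, 92 and 1097 in KO. It was highest in 1 library of each genotype, which were not those of the same number. Of the 12 genes in the list of the locus and IL-1 family receptors, 6 were tested and 0 of them lay without overlap. Il1rl2, a receptor of IL-36, reached 2232 in WT replicate 2 and at most 4.65 elsewhere. The ligands Il18, Il1b and Il33 were at most 6.1 in all libraries.

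The adaptors that carry IL-18 and IL-1 signals were patchy as well. Myd88, the first adaptor of these receptors, was 0, 1534 and 3946 in WT and 3676, 1.86 and 1.33 in KO. Irak4, the kinase it recruits, was 1219, 1373 and 3 in WT and 3125, 375 and 780 in KO. Traf6, the ubiquitin ligase downstream, was 2825, 2423 and 2797 in WT and 370, 3915 and 7.99 in KO. In each gene 1 or more libraries were near 0, and the genotypes overlapped in all 9 tested genes of the list. Of the partners and targets of lnc13 known from macrophages, 7 of 8 were tested, none was without overlap, and the median log2 difference was -1.10 beside -0.08 over all genes tested. Hnrnpd was 891, 1714 and 2939 in WT and 1720, 494 and 531 in KO. Hdac1 was 2848, 4847 and 1411 in WT and 3617, 10.2 and 4992 in KO.

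Across the 27 lists of pathways and functions, 395 of 462 genes passed the filter, and 0 passed adjusted p 0.05 by limma. KO lay above WT for 22 of the 395 (5.57%, beside 3.81% of all genes) and below for 12 (3.04%, beside 4.71%). At an unadjusted p under 0.05 there were 16 (4.05%, beside 3.34%). DESeq2 called 3 of the 395 higher (Ddit4, Eef2 and Mcm2) and 5 lower (Ifih1, Myc, Prdm1, Rtp4 and Satb1). Over all 17208 genes it called 300 higher (1.74%) and 465 lower (2.7%). Of the 367 list genes with a mean of at least 50, 166 (45.2%) were patchy, beside 72% of all genes at that level. The shares of all genes given here also stand beside the counts of single lists below.

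Chains of the T cell receptor complex were read at high levels in all 6 libraries. Of the 15 tested genes of the complex and its coreceptors, 1 was patchy and the median log2 difference was 0.01. Cd3e, a signalling chain, was 23159, 13946 and 23350 in WT and 11294, 12696 and 23004 in KO. Trac, the constant region of the alpha chain, was 18674, 9710 and 11719 in WT and 13631, 15748 and 13359 in KO. Cd3d was 24508, 17447 and 27111 in WT and 31359, 31520 and 29692 in KO, a log2 difference of 0.45 (SE 0.17, adjusted p = 0.903 by limma), and was the gene of the list with all KO above all WT. Cd5, an inhibitory coreceptor, was 3959, 2383 and 2074 in WT and 4.07, 3127 and 951 in KO, the patchy gene of the list. Cd6, another coreceptor, was 15253, 4337 and 2744 in WT and 3881, 6729 and 3857 in KO, and the costimulatory receptor Cd28 was 5538, 3412 and 10095 in WT and 4310, 9437 and 1936 in KO. Both varied several-fold within a genotype and overlapped. The segments that build the receptor differed between libraries. Of 55 Trav segments, 4 to 18 reached 50 per library and 0 did so in all 6. Of 25 Trbv segments, 12 to 15 reached 50 per library and 8 did so in all 6. The leading Trbv segment was Trbv19 in WT replicate 1, Trbv12-2 in WT replicate 2 and KO replicate 3, Trbv13-3 in WT replicate 3, and Trbv15 in KO replicates 1 and 2, at 16% to 39.1% of the family.

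Genes of the gamma-delta receptor were present too. Trdc, the constant region of the delta chain, was 372, 992 and 338 in WT and 2.03, 881 and 915 in KO. Tcrg-C2, a constant region of the gamma chain, was 10375, 6187 and 7905 in WT and 13490, 11703 and 13659 in KO, with all KO above all WT, a log2 difference of 0.70 (SE 0.26) and an adjusted p of 0.903 by limma. Tcrg-C1 was 7.83, 8.6 and 2741 in WT and 2978, 844 and 228 in KO. The gamma constant regions are near-identical copies, so reads may be split between them. KO replicate 1 was the library low in Trdc, and it was the highest in Tcrg-C1. In bulk cells, a change in the share of a cell type and a change in RNA per cell cannot be told apart.

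Kinases near the receptor were 16 of 16 tested, with 0 genes without overlap. Lck, the first kinase of the T cell receptor cascade, was 34372, 32569 and 40866 in WT and 50344, 44478 and 40795 in KO. Its log2 difference was 0.33 (SE 0.11, unadjusted p = 0.0213, adjusted p = 0.903 by limma), and WT replicate 3 lay just above the lowest KO library.

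Cytotoxic genes held both patchy genes and genes read in every library. Gzma, granzyme A, was 20442, 31191 and 31048 in WT and 26195, 26351 and 29853 in KO. Gzmb, granzyme B, was 2553, 5478 and 6057 in WT and 8084, 4855 and 2069 in KO. Both overlapped between genotypes, with log2 differences of 0.02 (SE 0.18) and -0.02 (SE 0.66). Gzmk, granzyme K, was 9727, 6363 and 11494 in WT and 12240, 16043 and 13331 in KO, with all KO above all WT. Prf1, perforin, was at most 4.07 in any library and under the filter. Ifng, interferon gamma, was 299, 0.781 and 3 in WT and 516, 678 and 0 in KO, and Tnf was listed at 0 in all 6. Fasl, the ligand of the death receptor Fas, was 8023, 1757 and 4954 in WT and 9.16, 2886 and 14639 in KO. Of 16 tested genes of the list, 7 were patchy, 2 had all KO above all WT and 0 all KO below, and the median log2 difference was 0.19.

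Of 15 tested NK receptor genes, 10 were patchy. Klra9, a Ly49 receptor of a multigene family, was 0.87, 6.25 and 0 in WT and 106, 3.72 and 192 in KO. Klrk1, which encodes NKG2D, was 1754, 19.5 and 9.01 in WT and 10.2, 1846 and 13.3 in KO, high in 1 library of each genotype. Crtam, an adhesion receptor of activated T cells, was 3631, 2304 and 2960 in WT and 2065, 910 and 1586 in KO, the gene of the list with all KO below all WT (unadjusted p = 0.214).

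Itgae, the CD103 chain that binds E-cadherin on epithelium, was 12940, 4374 and 7366 in WT and 14079, 12724 and 26489 in KO. Its log2 difference was 1.17 (SE 0.46, unadjusted p = 0.0391, adjusted p = 0.903 by limma), and the groups overlapped through WT replicate 1. Gpr55, a lipid receptor that limits IEL migration, was 1733, 3244 and 2182 in WT and 650, 8.36 and 109 in KO, with all KO below all WT. Its adjusted p was 0.903 and in the IL-15 set it was 1060, 1367 and 1062 in WT and 1265, 1394 and 1054 in KO. Of the 18 tested genes of residence and homing, 0 had all KO above, 1 had all KO below, and the median log2 difference was 0.33.

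Among checkpoint receptors, Cd96 varied little within groups. Cd96, a receptor of nectin-like ligands, was 29605, 34354 and 29722 in WT and 23501, 25299 and 22900 in KO. The groups did not overlap, the log2 difference was -0.38 (SE 0.10), the unadjusted p 0.00579 and the adjusted p 0.903 by limma. In the IL-15 set it was 30671, 31551 and 29646 in WT and 24355, 23842 and 19690 in KO, again without overlap, a log2 difference of -0.44. Of 81 genes with a mean of at least 20000 in that set, 30 (37%) had all KO below all WT. Ctla4, an inhibitory receptor, was 412, 7.03 and 1786 in WT and 5005, 4536 and 2010 in KO, with all KO above all WT. Icos, a costimulatory receptor, was 2117, 4975 and 2811 in WT and 1436, 183 and 1395 in KO, with all KO below. Pdcd1, the gene of PD-1, was 3155 in KO replicate 1 and at most 3.13 in the other 5 libraries. Of 14 tested genes, 11 were patchy, and 1 lay above and 3 below without overlap, beside 3.81% and 4.71% of all genes. The median log2 difference was -0.61. Without WT replicate 1 the median was 1.06, the opposite direction.

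No gene passed in the list of receptors, kinases and STAT5 factors around IL-15 and IL-2, which also holds Il15 and receptors of related cytokines. Of its 13 tested genes 10 were fitted higher, with no test of the group. Il7r, the IL-7 receptor chain, was 66557, 41020 and 48951 in WT and 55754, 75037 and 75731 in KO. Il2rb, the beta chain shared by IL-15 and IL-2, was 6129, 21.1 and 39.1 in WT and 5809, 5282 and 2882 in KO. Stat5a, which these receptors activate, was 337, 73.4 and 6.01 in WT and 360, 695 and 2872 in KO. Il7r and Il2rb overlapped, and Stat5a was the 1 gene of 13 with all KO above all WT. The list's median log2 difference was 0.63 and 10 of its 13 genes were patchy.

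Myc, a transcription factor of growth that IL-2 family cytokines induce, was 6060, 2500 and 1819 in WT and 3.05, 18.6 and 232 in KO. All KO were below all WT, with an unadjusted p of 0.0131 and an adjusted p of 0.903 by limma and 0.00254 by DESeq2. In the IL-15 set all KO were above all WT, at 3508, 4221 and 3659 in WT and 4418, 4556 and 5752 in KO. The survival gene Bcl2a1b was 500, 393 and 706 in WT and 1574, 1225 and 1102 in KO, and its near-identical copy Bcl2a1d was 889, 913 and 958 against 1437, 1388 and 1295. Reads may be split between these copies. Over the 18 genes of the list the median log2 difference was 0.54, with 2 above and 1 below without overlap.

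Immediate early genes without overlap lay in both directions. Fos, a subunit of AP-1, was 922, 211 and 664 in WT and 11.2, 0 and 77.2 in KO, with all KO below all WT and an adjusted p of 0.903. Ier2, a gene induced within minutes of a stimulus, was 872, 2006 and 2732 in WT and 5753, 3269 and 4911 in KO, with all KO above all WT. Egr1, another early factor, was 0.87, 0.781 and 12 in WT and 53.9, 612 and 6.66 in KO. Of 20 tested genes, those were the only 2 without overlap, and 11 of the 16 with a mean of at least 50 were patchy. Transcription factors of T cell lineages gave 0 of 19 without overlap. Prdm1, the gene of BLIMP-1, was 722, 3.13 and 2364 in WT and 0, 17.7 and 12 in KO. Tox, a factor of CD8 T cell development, was 3728, 197 and 3131 in WT and 25.4, 4.65 and 1526 in KO. Satb1, a chromatin organiser, was 32.2, 1684 and 1752 in WT and 29.5, 52 and 45.3 in KO. In each of the 3 genes 2 WT libraries were high and WT overlapped KO through the other.

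In the type I interferon list, 15 of 17 genes with a mean of at least 50 were patchy. Its median log2 difference was -0.72, and 2 of 21 genes had all KO below and 1 all KO above. Rtp4, given above, was 1 of the 2. Rsad2, an antiviral enzyme, was 973, 7.81 and 15 in WT and 1.02, 0 and 2.66 in KO, where WT replicate 1 alone was high. Isg15, a ubiquitin-like protein, was 2.61, 327 and 0 in WT and 0, 444 and 598 in KO. Irf7, a factor that amplifies interferon, was 3.48, 1.56 and 3314 in WT and 9.16, 1173 and 1997 in KO. These 2 genes were high in 1 WT library and 2 KO libraries. The median of the list without WT replicate 1 was -0.09. Genes of the interferon gamma response gave 0 of 18 without overlap, with Gbp4, a guanylate-binding protein, at 9048, 3834 and 7275 in WT and 590, 4181 and 1945 in KO. NF-kB subunits and feedback genes gave 0 of 17, with a median of -0.06.

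The chains of MHC class I were abundant in every library. B2m, the light chain, was 77051, 68660 and 96756 in WT and 86176, 90445 and 82617 in KO. H2-K1 was 45932, 31788 and 38656 in WT and 26142, 47068 and 51854 in KO. Both overlapped. Genes of peptide loading varied more. Erap1, which trims peptides, was 3113, 3102 and 4422 in WT and 9.16, 1496 and 683 in KO, and Calr, a chaperone, was 876, 3651 and 16 in WT and 10328, 3781 and 4166 in KO. Nlrc5, the transactivator of class I genes, was 1725, 758 and 3035 in WT and 576, 276 and 169 in KO. Of 18 tested genes, 2 were above and 2 below without overlap, and the median log2 difference was 0.05.

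**Figure D4:**
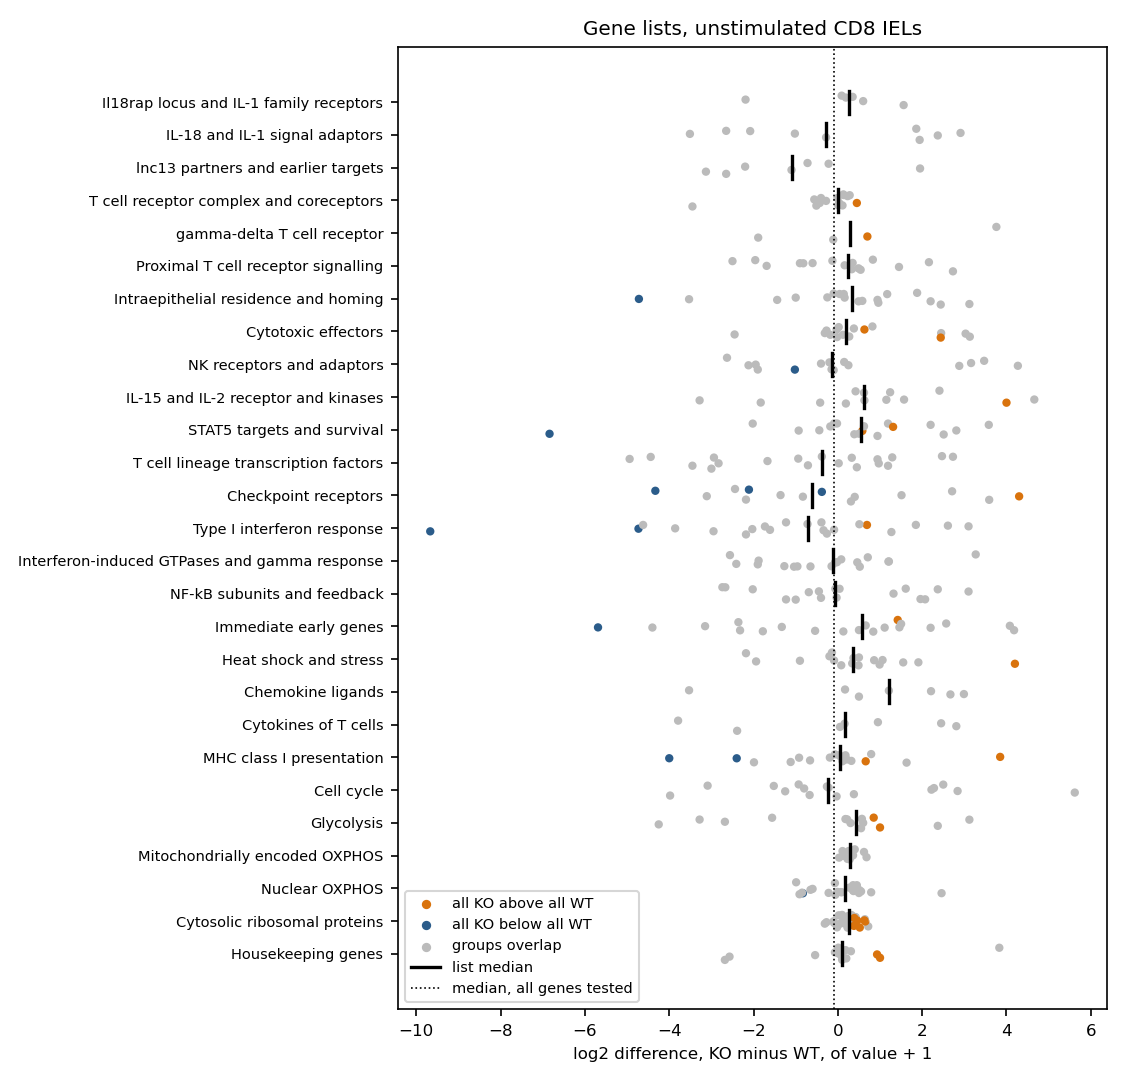
Fitted log2 difference, KO minus WT, of each tested gene (points) in 27 gene lists, with the list median (black bar) and the median of all genes tested (dotted line); orange marks genes with all KO above all WT, blue all KO below, grey overlap. No point passed adjusted p 0.05 by limma, and points of the ribosomal and mitochondrial lists lie closest together.

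Among abundant genes, KO lay above WT more often than below. Of 729 genes with a mean of at least 5000, KO lay above WT for 70 (9.6%) and below for 14 (1.92%), and the median log2 difference was 0.16. The 30 cytosolic ribosomal protein genes gave 6 above, 0 below, 25 fitted higher, and a median of 0.26, with 0 patchy. Rps14 was 22961, 22021 and 26108 in WT and 27217, 28747 and 38081 in KO. Rps6 was 11065, 7954 and 9618 in WT and 12998, 13331 and 14451 in KO. Rpl18 was 5899, 7412 and 5875 in WT and 11552, 8996 and 9601 in KO. In these 3 every KO library was above every WT library, and each adjusted p was 0.903. These counts depended on the scaling. With libraries scaled to equal totals, a setting added after the data were seen, KO lay above WT for 43 abundant genes and below for 32, and for 2 and 0 ribosomal genes. That scaling moved the median of all genes tested from -0.08 to -0.25. Relative to that median, abundant genes stood at 0.24 with the authors' factors, 0.22 with equal totals and -0.04 with quantile normalisation, and ribosomal genes at 0.34, 0.32 and 0.07. WT replicate 2 had the lowest sum of ribosomal counts, 239670, beside 303979 to 346256 in the other WT and 346972 to 377628 in KO libraries, and without it the ribosomal median was 0.12. Without the same library the median of the abundant genes went from 0.16 to 0.02, or 0.12 relative to all genes.

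In glycolysis 2 genes lay without overlap, and genes of oxidative phosphorylation showed 1, in the other direction. Pkm, the last kinase of glycolysis, was 5915, 3395 and 4020 in WT and 10271, 6989 and 6536 in KO. Gapdh, another glycolytic enzyme, was 1878, 2407 and 1979 in WT and 4361, 5208 and 3151 in KO. Both lay above WT in all KO libraries, and the other 12 tested genes of glycolysis overlapped. The list's median of 0.42 became -0.08 without WT replicate 2. All 11 tested mitochondrially encoded genes of oxidative phosphorylation were fitted higher, with a median of 0.28 and 0 without overlap. The summed level of that list was 357929 to 507321 in WT and 830215, 380012 and 446978 in KO, and without KO replicate 1 the median was -0.01. Of 24 nuclear genes of the same complexes, 1 lay below WT (Ndufa2, at 6102, 7400 and 5409 in WT and 3473, 5280 and 2379 in KO) and 0 above. Of 17 heat shock and stress genes, Ddit4, an inhibitor of mTOR, was the 1 with all KO above all WT, at 1.74, 1.56 and 0 in WT and 2.03, 270 and 51.9 in KO. The 1.74 of WT replicate 1 and 2.03 of KO replicate 1 are the same number of reads. A read was worth 0.87 and 1.017 in these libraries, so the lack of overlap there comes from the scaling. Of 16 tested cell cycle genes 0 lay without overlap, and Mcm2, a replication helicase subunit, was 5.22, 14.8 and 7.01 in WT and 2269, 7.44 and 4931 in KO.

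Transcripts of epithelial cells were present, and some were library-specific. Of 20 enterocyte markers, 18 reached 50 in at least 1 library. Their summed level was 4892, 14791 and 31154 in WT and 15507 to 15968 in KO, so WT replicate 3 was highest and WT replicate 1 lowest. Epcam, the adhesion molecule that defines epithelium, was 1265 in WT replicate 3 and at most 2.79 in the other 5 libraries. That library also stood out in Krt18, Vil1, Muc2 and Agr2. Without it, the log2 difference of Epcam turned from -2.54 to 0.76. Apoa4, a lipid carrier of enterocytes, was 0 in the 3 WT libraries and 2.03, 377 and 249 in KO. Goblet and tuft cell markers summed to 3216 to 7102 in WT and 1826 to 4414 in KO, with 8 of 10 reaching 50, and Paneth cell markers to 1449 to 4503 in WT and 6.51 to 3979 in KO. Lyz1, the Paneth cell lysozyme, was 689, 3.13 and 620 in WT and 1.02, 2.79 and 1.33 in KO.

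Markers of other blood cells ranged from near 0 to 12867. Of 13 macrophage markers, 9 stayed under 10 in all libraries, C1qa, C1qb and C1qc among them, and Cd68 reached 1101 in KO replicate 3 only. Of 12 B cell markers 5 reached 50, and their sum was 10465 to 12932 in WT and 2883 to 11033 in KO. Cd79a, a chain of the B cell receptor, was at most 3.99, whereas Cd79b, its partner, was 744, 2.34 and 1145 in WT and 2070, 4473 and 1133 in KO. Ighm, the constant region of IgM, was 8378, 12867 and 9487 in WT and 7.12, 5642 and 9869 in KO, low in KO replicate 1. Of 10 plasma cell markers 2 reached 50, Xbp1 and Prdm1, which T cells also express. Of 13 dendritic cell markers 6 reached 50, summing to 2356 to 2670 in WT and 2457 to 4014 in KO. Bst2, an interferon-induced membrane protein, was 1110, 926 and 1366 in WT and 283, 3026 and 1366 in KO, while Clec9a and Flt3 were at most 11.7. Of 14 markers of neutrophils, mast cells and eosinophils, 10 stayed under 10, and Kit was 2186, 3139 and 1965 in WT and 38.7, 3728 and 41.3 in KO. Of 9 markers of CD4 and regulatory T cells 4 reached 50, led by Ctla4, and their sum was 2026 to 2574 in WT and 3799 to 7351 in KO. Of 10 exocrine and erythrocyte markers 8 stayed under 10, Prss2 and Hbb-bs at 0 in all 6 libraries. The sum was 572, 8.6 and 1656 in WT and at most 24.4 in KO, through the elastase gene Cela1 at 495, 0 and 1647 in WT and 10.2, 1.86 and 2.66 in KO, and Alas2 reached 71.3 in WT replicate 1. The part of these transcripts in the other differences was not tested. Stromal markers summed to 327 to 2752 in WT and 126 to 6793 in KO, the highest through Pecam1 in KO replicate 1 at 6660.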

How the data were processed

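The deposited signal is a table of normalised read counts per Ensembl gene and library. Per the submitters' processing notes, STAR, featureCounts, DESeq2, TopHat, DESeq, BWA and deepTools were used with mm10 and mm39, and which tool and build made which table is not given in the sources used here. Every value was a whole multiple of 1 read within 0.01, and the reads recovered in this way served as depth. The authors' own fold changes and p-values were not used. Of 78275 Ensembl IDs, 51486 had a symbol, and no coordinates are given because the build is not settled.

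KO was compared with WT by limma 3.58.1 (R 4.3.3) on log2(value + 1), over all genes whose mean reached at least 5, with a mean-dependent prior and Benjamini-Hochberg adjustment at 0.05. The IL-15 table was fitted in the same way on its own. Alternatives were other pseudocounts, filters and scalings, a replicate block, array weights, edgeR 4.0.16, DESeq2 1.42.0 (with no adjusted p for 5837 genes) and leaving out each library. Tables were made with Python 3.11.15 and pandas 2.3.3. The scripts were tested on simulated data. A replicate number marks no shared animal or batch in the labels, so the numbers were not taken as pairs. Same-numbered WT and KO libraries correlated at -0.057, -0.02 and -0.001 after removal of group means. Because most genes with a mean of at least 50 were patchy, these values cannot exclude pairing.

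The named genes have a symbol and a mean of at least 50, and predicted genes, pseudogenes and receptor or immunoglobulin segments were left out. Since none passed the threshold, up to 12 per direction were taken by unadjusted p among genes without overlap. 13 fixed genes, the 3 members with the smallest p of a list and the leading gene of each marker list were added. Other list genes were chosen after their values were seen. The samples and the 40 gene lists (591 of 596 genes matched) were chosen with earlier results of these data known. Some list genes are not reported here.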

Additional observations from a re-analysis of the deposited data

Results flagged for a closer look

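Of 458 named and list genes tested in both CD8 sets, 7 had WT and KO libraries without overlap in both CD8 sets, in opposite directions, beside 146 of all 12565 genes tested in both (1.16%). Genes without overlap in the same direction in both sets were not counted here. Cd96, Crtam, Icos and H1f0 were among these, with all KO below all WT in both sets. Each difference between the sets was not tested, because the tables were normalised apart. Myc had a log2 difference of -6.84 without stimulation and 0.37 in the IL-15 set. Nlrc5 had -2.40 and 0.49. Cd3d had 0.45 and -0.30. Bcl2a1b, which may share reads with its copies, had 1.31 and -0.62, and its copy Bcl2a1d 0.58 and -0.78. The ribosomal gene Rplp1 had 0.38 and -0.29. Apoa4, an enterocyte gene listed at 0 in all unstimulated WT libraries, had 6.04 and -2.14, values that depend on the added 1. None of the 7 passed adjusted p 0.05 by limma in either set. With the authors' scaling, abundant genes leaned in opposite directions in the 2 sets. At a mean of at least 20000 without stimulation, KO lay above WT for 9 of 94 genes and below for 1. At that level in the IL-15 set, KO lay above WT for 0 of 81 genes and below for 30 (37%). Sums of normalised counts in the IL-15 set were 17907043 to 18927139 in WT and 16460735 to 17131453 in KO. With equal totals the unstimulated counts at a mean of at least 5000 were 43 above and 32 below. The IL-15 set was not fitted with equal totals, so the part of scaling in its lean was not tested.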

How the results depend on the processing

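The count of 0 genes past adjusted p 0.05 held in 18 of the 19 alternatives, whereas DESeq2 gave 300 higher and 465 lower. Genes at an unadjusted p under 0.05 numbered 575, against 354 with a pseudocount of 10, 351 with a mean of at least 50, 1874 without a filter, 1380 by edgeR and 1724 by DESeq2. The replicate block gave 506, still with 0 calls. The smallest adjusted p over the limma alternatives was 0.273. The share of patchy genes was 72%, and 36% at a ratio of at least 1000. Both shares hold the 24.2% of genes at 0 in at least 1 library, which meet any ratio. The ratio of 1000, equal totals and a term for Y-linked reads were chosen after seeing the data. Directions were reversed for 8 genes. Leaving out 1 library gave -2.26 to 3.29 for Il18rap, -0.09 (without KO replicate 3) to 3.10 for Il18r1, and -3.28 to 0.84 (without KO replicate 1) for Trdc. It gave -4.39 to 0.76 for Epcam, -0.06 (without WT replicate 2) to 0.41 for Trac, -0.18 (without WT replicate 1) to 0.12 for Gzma, and -0.47 to 0.51 for Gzmb, positive without WT replicate 2 or 3 or KO replicate 3. Gzma was -0.03 with TMM, -0.13 with quantile normalisation, -0.01 with array weights, -0.06 by edgeR, -0.03 by DESeq2 and -0.17 as equal totals. Gzmb was 0.04 by edgeR and 0.08 by DESeq2. Under quantile normalisation and equal totals, Cd8a was -0.11 and -0.08, and Trac -0.04 and -0.05. The cause was not tested. Medians of 26 of the 40 lists had another sign under some alternative, in 94 of 760 values. Library depth limits genes near 1 read. Each SE given here is from the limma fit. It is not the spread of that gene alone, because the fit draws each spread toward that of genes of like mean. Bcl2a1d had SDs of 35.2 normalised counts around 920 in WT and 71.8 around 1373 in KO, and a log2 SE of 0.96. The p-values by limma rest on the same SE.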
